A study of Mus musculus with 7 samples.

Results

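Transcripts of the calcium/calmodulin-dependent protein kinases (CaM kinases), of the phosphatase calcineurin and of its targets, the NFAT transcription factors, were compared between mouse cortical neurons that carried a control hairpin and neurons that received no virus. The group was set by gene name, with earlier results of these data known but with no threshold on the measured values, and holds 10 genes: *Camk2a*, *Camk2b*, *Camk2d*, *Camk2g*, *Camkk1*, *Camkk2*, *Camk4*, *Ppp3ca*, *Nfatc2* and *Nfatc3*. They were followed through probe sets, the sets of short probes with which an Affymetrix array reads a transcript. Of the 10 genes, 9 had tested probe sets, out of 12315 genes in all, and these 9 genes had 30 of the 22748 tested probe sets. No probe set of the annotation used here names *Camkk1*, so no value is given for it. A further 6 probe sets of *Camk2a*, *Camk2d* and *Nfatc2* stayed under an intensity of 50 on all arrays and were not tested, and 0 carried the suffix _x, which marks probes that may bind other genes.

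The hairpin condition was 4 samples transduced with a lentivirus that expresses a short hairpin RNA against luciferase, a firefly gene that mice lack. The other condition was 3 untransduced samples, called blank. Both were primary cortical neurons of C57/Bl6J embryos of day 16, kept in culture for 16 days. The neurons of the hairpin group met the virus on day 2 for 6 hours (multiplicity of infection 3) and were harvested 14 days later. The conditions differ in exposure to virus, in the green fluorescent protein that the virus also expresses and in the hairpin. These cannot be told apart. Nothing in the sources says that the samples came from different litters or days of culture. The p-values therefore cover the variation among these samples alone, and part or all of it may be technical. These are bulk cultures, in which fewer cells of a type and less RNA per cell cannot be told apart. The label of neurons was borne out by neuronal markers such as *Snap25* (8813 ± 267 in luciferase neurons and 8409 ± 315 in blank neurons; SD, n = 4 and n = 3) and *Map2* (5472 ± 297 and 5145 ± 716), but astrocyte markers were read as well.

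When calcium enters a neuron it binds calmodulin, which switches on kinases and a phosphatase. CaM kinase II is a large assembly of alpha, beta, gamma and delta subunits that phosphorylates synaptic proteins and can stay active after calcium has fallen. The CaM kinase kinases (*Camkk1*, *Camkk2*) activate CaM kinase IV (*Camk4*), a mostly nuclear kinase that phosphorylates CREB, and *Camkk2* also activates the energy sensor AMPK. Calcineurin, whose catalytic alpha subunit is encoded by *Ppp3ca*, removes phosphates from NFAT proteins, which then enter the nucleus and bind DNA at the letters GGAAA.

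Start regions of 3 members are shown for orientation: those of *Nfatc2* and *Camkk2*, which each had a called probe set that was lower in luciferase neurons, and that of *Nfatc3*, the other NFAT factor among the members. The sequences come from the 250 bases before an annotated start site, read 5′ to 3′ on the strand of the gene, from RefSeq on GRCm38.p6; only bases outside the gene model are printed, and capitals mark the NFAT core GGAAA or its reverse complement TTTCC. *Nfatc2* is on the minus strand at chr2:168601658-168601907, *Nfatc3* on the plus strand at chr8:106058568-106058817 and *Camkk2* on the minus strand at chr5:122779523-122779660, the 138 bases of its window farthest from the start site.
Nfatc2: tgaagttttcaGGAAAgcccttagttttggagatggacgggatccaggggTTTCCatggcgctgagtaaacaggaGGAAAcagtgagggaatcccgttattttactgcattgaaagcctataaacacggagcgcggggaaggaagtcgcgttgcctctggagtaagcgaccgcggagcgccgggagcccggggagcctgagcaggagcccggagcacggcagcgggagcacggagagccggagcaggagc
Nfatc3: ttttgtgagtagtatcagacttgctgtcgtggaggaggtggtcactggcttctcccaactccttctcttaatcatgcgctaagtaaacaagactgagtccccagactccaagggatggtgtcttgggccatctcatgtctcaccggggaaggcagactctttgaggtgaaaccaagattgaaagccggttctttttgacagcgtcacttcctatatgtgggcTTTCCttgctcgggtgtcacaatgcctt
Camkk2: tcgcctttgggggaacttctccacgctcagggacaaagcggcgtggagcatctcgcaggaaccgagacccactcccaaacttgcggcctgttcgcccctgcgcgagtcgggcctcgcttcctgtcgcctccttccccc
The 250 bases before *Nfatc2* held 3 NFAT cores, those before *Nfatc3* held 1, and those of *Camkk2* held 0. *Nfatc2* and *Nfatc3* each have another annotated start inside the gene model, whose windows, not printed, held 1 and 0 cores. Such a core is common: 55.6% of 32851 start windows of 250 bases held at least 1 on either strand. The share that held 3 or more was not computed. The region of *Nfatc3* also held 1 copy of TGACG, the short form of the cAMP response element that CREB binds, searched on both strands and held by 17.8% of those windows. None of the 3 printed stretches held the full element TGACGTCA, which 1.55% of the windows held. A match of letters is a description and not a binding site.

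In luciferase neurons 6 of 9 probe sets of the kinase cascade (*Camkk2*, *Camk4*) were lower, 2 of 3 of the calcineurin subunit *Ppp3ca* were higher, 2 of 6 of NFAT, both of *Nfatc2*, were lower, and those of CaM kinase II that passed went both ways. A probe set passed at an adjusted p of at most 0.05 (limma with Benjamini-Hochberg adjustment over the 22748 probe sets) and was called if it also differed by at least 1.5-fold. Of the 30, 15 passed, 6 higher and 9 lower; of all tested probe sets 24.5% passed, 16.2% higher and 8.26% lower. Among the 6 that were higher, *Nfatc3* 1452497_a_at was tested only because 1 luciferase array reached 50, so it entered through the group where it is high. With at least 50 on 3 arrays it was not tested and 5 were higher. Called were 3, with 1 higher and 2 lower, where 4.19% of all tested probe sets were called, 2.9% higher and 1.29% lower. In 19 probe sets the 4 luciferase arrays did not overlap with the 3 blank arrays, 7 higher and 12 lower, against 34.8% of all tested probe sets, 22.5% higher and 12.3% lower. The median log2 change was -0.11 over the 30 and 0.056 over all tested probe sets. Probe sets of 1 gene share that gene as their target and are not replicates, so the counts by gene are given too: 7 of the 9 genes had at least 1 passed probe set and 3 had a called one. By the probe set of the highest level, 1 gene was higher (*Camk2a*), 3 were lower (*Camkk2*, *Camk4*, *Nfatc2*) and 5 did not pass. Shares over all tested genes were not computed, so these counts by gene stand without a background. A gene with more probe sets also has more chances to hold 1 that passed.

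**Figure D1:**
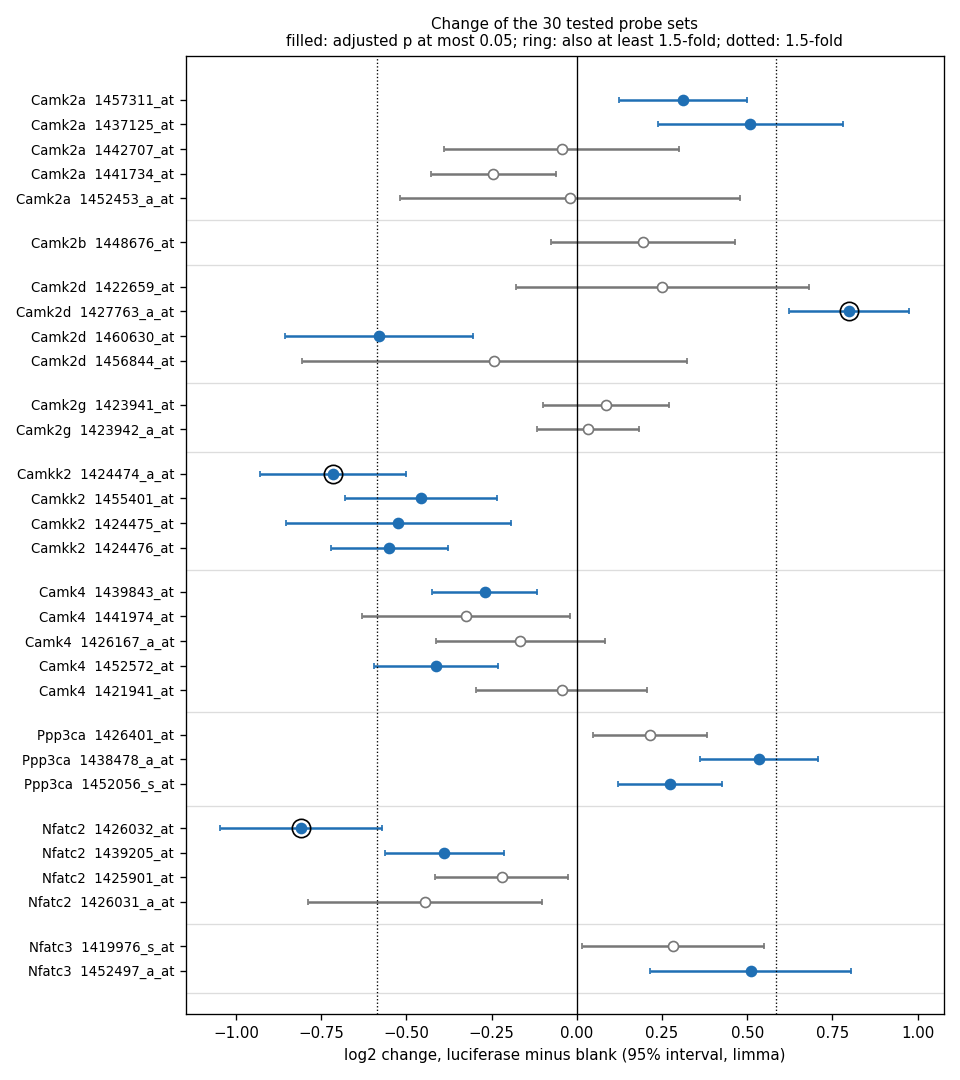
Log2 change of each of the 30 tested probe sets, luciferase minus blank, with its 95% interval from limma (x axis) and the gene and probe set (y axis); filled points passed the adjusted p, rings were also at least 1.5-fold apart, and dotted lines mark 1.5-fold. All 4 probe sets of *Camkk2* lie left of 0, all 3 of *Ppp3ca* lie right of it, and those of *Camk2d* lie on both sides.

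The counts depend on single arrays. Without luciferase replicate 3, or without blank replicate 6, 3 member probe sets passed as higher in place of 6. Without luciferase replicate 1, 3 were called higher in place of 1, and without blank replicate 6, 4 were called lower in place of 2. Of all tested probe sets 5568 passed, against 3358 without blank replicate 5 and 3245 without blank replicate 6. The median level over the tested probe sets lay between 237 and 241 on the luciferase arrays and between 216 and 235 on the blank arrays. Of all called probe sets 69.2% were higher as deposited, 58.4% after quantile normalization of the 7 arrays and 43.8% when every array was set to the same median.

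*Camkk2*, which encodes the kinase at the head of the cascade, was lower in luciferase neurons in all of its 4 probe sets. Probe set 1424474_a_at read 1082, 929.7, 901 and 1023 on the luciferase arrays, against 1570.2, 1488 and 1789 on the blank arrays. All luciferase arrays were below all blank arrays, and blank replicate 7 was the highest of all. The mean ± SD was 984 ± 83.6 in luciferase neurons (n = 4) and 1616 ± 156 in blank neurons (n = 3), so the level was 60.9% of blank (log2 change -0.72 with a standard error of 0.095, limma adjusted p = 0.0015). This probe set was called under all 15 alternatives.

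The other 3 *Camkk2* probe sets passed without being called. Probe set 1455401_at read 603, 676, 696 and 580.1 on the luciferase arrays, against 846, 800.0 and 988 on the blank arrays (log2 change -0.46, limma adjusted p = 0.012). The dim probe set 1424476_at read 55.9, 51.0, 56.0 and 54.6 on the luciferase arrays, against 81.1, 83.9 and 73.9 on the blank arrays (log2 change -0.55, limma adjusted p = 0.0019). In both, the groups were apart, with the luciferase arrays of 1424476_at just above the floor of 50. Probe set 1424475_at read 407, 362, 303 and 395 on the luciferase arrays, against 483, 449 and 662 on the blank arrays (log2 change -0.52, limma adjusted p = 0.030). Here too the groups did not overlap, but blank replicate 7 stood well above the other blank arrays and luciferase replicate 3 below the other luciferase arrays. It did not pass without luciferase replicate 2 (limma adjusted p = 0.063), luciferase replicate 3 (0.073), blank replicate 5 (0.052) or blank replicate 7 (0.056, with a log2 change of -0.35), and it was called without blank replicate 6 (log2 change -0.63). The dim 1424476_at was called without blank replicate 7 (log2 change -0.60).

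*Camk4*, the nuclear kinase that *Camkk2* activates, was lower in 2 of its 5 probe sets, and 3 did not pass. The brightest, 1439843_at, read 1773, 1766, 1766 and 1867 on the luciferase arrays, against 2176, 2067 and 2243 on the blank arrays. All luciferase arrays lay below all blank arrays, with luciferase replicate 4 somewhat above the other luciferase arrays. The level was 82.9% of blank, with 1793 ± 49.4 in luciferase neurons (SD, n = 4) and 2162 ± 88.7 in blank neurons (SD, n = 3; log2 change -0.27 with a standard error of 0.069, limma adjusted p = 0.022). It did not pass without any filter on level (limma adjusted p = 0.052), nor without luciferase replicate 1 (0.054), 2 (0.055) or 3 (0.054) or blank replicate 5 (0.069). Probe set 1452572_at read 66.8, 57.1, 67.2 and 60.5 on the luciferase arrays, against 82.2, 85.9 and 82.5 on the blank arrays (log2 change -0.41, limma adjusted p = 0.0078). Its groups were apart, and it passed under every alternative that kept it.

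Of the *Camk4* probe sets that did not pass, 1441974_at read 328, 225, 283 and 341 on the luciferase arrays, against 359, 344 and 390.5 on the blank arrays (log2 change -0.33, 95% interval -0.63 to -0.02, limma adjusted p = 0.11). The groups did not overlap, but luciferase replicate 2 stood far below the others, and without it the log2 change was -0.20 (limma adjusted p = 0.19). With all arrays kept, the probe set passed under quantile normalization, centring on the median and array weights. The remaining pair, 1426167_a_at and 1421941_at, had log2 changes of -0.17 (95% interval -0.41 to 0.08) and -0.04 (95% interval -0.30 to 0.21), and their groups overlapped. Over the cascade as a whole, 6 of the 9 tested probe sets were lower, 3 did not pass and 0 were higher.

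**Figure D2:**
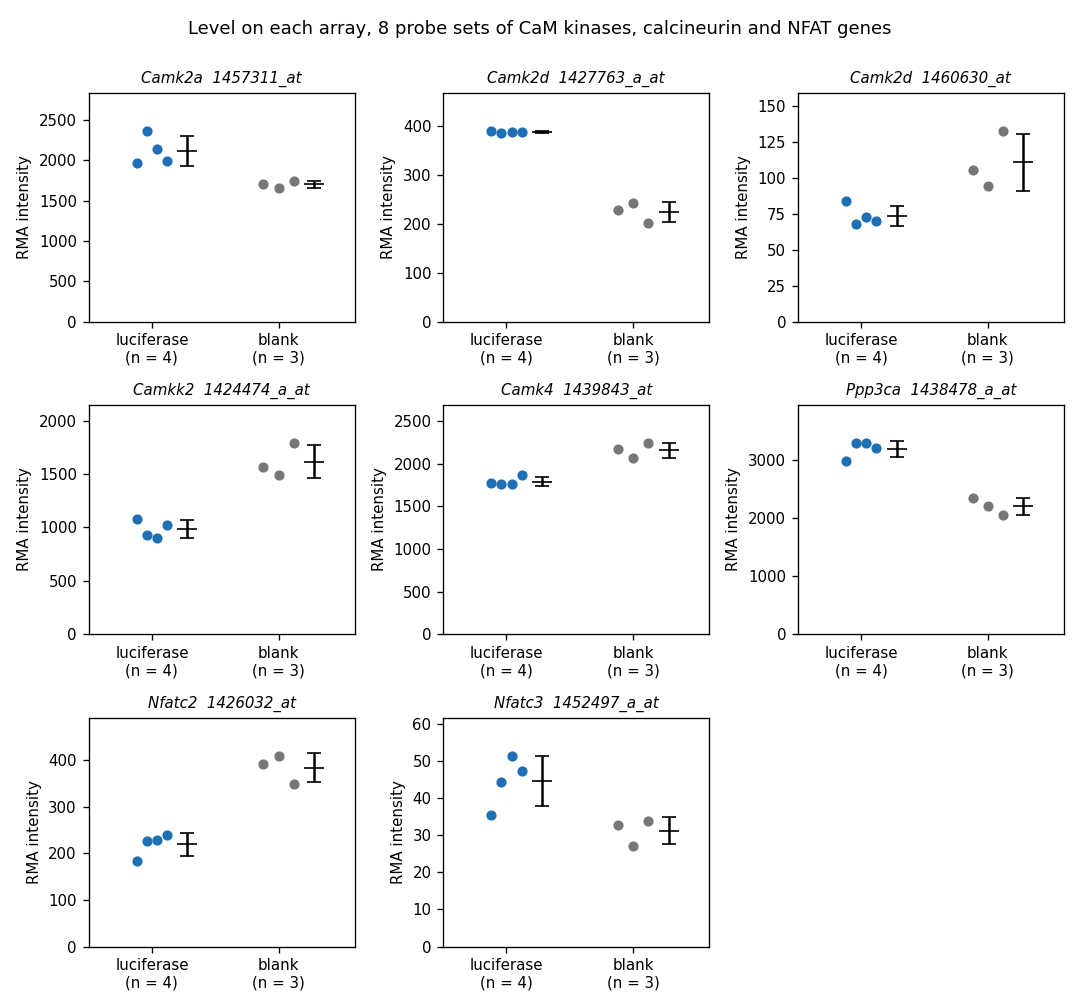
RMA intensity (y axis, linear, from 0) of 8 probe sets on each luciferase array (blue, n = 4) and blank array (grey, n = 3); each point is an array, with a bar at its side for mean ± SD. Shown is, for each gene and direction, the passed probe set of the highest level. Luciferase points are the lower ones for *Camkk2*, *Camk4*, *Nfatc2* and *Camk2d* 1460630_at and the higher ones in the other panels.

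The CaM kinase II subunits had 12 tested probe sets, of which 3 were higher in luciferase neurons, 1 was lower and 8 did not pass. *Camk2d*, which encodes the delta subunit, held both the highest and the lowest of these changes. Probe set 1427763_a_at read 390.1, 385, 388 and 388 on the luciferase arrays, against 227, 242 and 201 on the blank arrays. The luciferase arrays were almost level with each other and far above all blank arrays. The means were 388 ± 1.95 in luciferase neurons (SD, n = 4) and 223 ± 20.5 in blank neurons (SD, n = 3), a rise to 174% of blank (log2 change 0.80 with a standard error of 0.079, limma adjusted p = 0.00042) that was called under all 15 alternatives.

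The *Camk2d* probe set 1460630_at ran the other way. It read 83.9, 67.9, 72.9 and 69.6 on the luciferase arrays, against 106, 94.2 and 133 on the blank arrays, with no overlap and blank replicate 7 the highest. The level was 66.8% of blank (log2 change -0.58 with a standard error of 0.12, limma adjusted p = 0.011), just short of the 1.5-fold line. It was called in 5 of the 15 alternatives: quantile normalization, centring on the median, and without luciferase replicate 1, blank replicate 5 or blank replicate 6. Taken within each array, the log2 value of 1427763_a_at minus that of 1460630_at was 2.22, 2.50, 2.41 and 2.48 on the luciferase arrays, against 1.104, 1.36 and 0.601 on the blank arrays. The luciferase arrays were all above the blank arrays in this difference, which averaged 2.40 ± 0.13 in luciferase neurons (SD, n = 4) and 1.02 ± 0.39 in blank neurons (SD, n = 3). This difference was chosen after the values were seen and is given with no test. In Affymetrix names the suffix _a_at marks probes that all match several transcripts of 1 gene; which transcripts either probe set reads was not tested.

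The brightest *Camk2d* probe set, 1422659_at, read 808, 683, 773 and 462 on the luciferase arrays, against 491, 521 and 685 on the blank arrays (log2 change 0.25, 95% interval -0.18 to 0.68, limma adjusted p = 0.36). Its groups overlapped, with luciferase replicate 4 below every blank array. The log2 change was 0.43 without luciferase replicate 4, 0.40 without blank replicate 7, and 0.16 without luciferase replicate 1 or blank replicate 5. It passed in none of these fits (limma adjusted p between 0.057 and 0.65). With all arrays kept, it passed with array weights (log2 change 0.44, limma adjusted p = 0.038). Probe set 1456844_at read 44.2, 50.3, 61.7 and 48.8 on the luciferase arrays, against 51.8, 42.0 and 100.01 on the blank arrays (log2 change -0.24, 95% interval -0.81 to 0.32). Its sign turned without blank replicate 7, the 1 array far above the rest (log2 change 0.125), and without blank replicate 6 the log2 change was -0.50.

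*Camk2a*, which encodes the alpha subunit of forebrain excitatory neurons, was higher in its 2 brightest probe sets and did not pass in the other 3. Probe set 1457311_at read 1967, 2365, 2144 and 1992 on the luciferase arrays, against 1711, 1653 and 1741 on the blank arrays. All luciferase arrays lay above all blank arrays, and replicate 2 was the highest. The mean ± SD was 2117 ± 183 in luciferase neurons (n = 4) and 1702 ± 44.3 in blank neurons (n = 3) (log2 change 0.31 with a standard error of 0.083, limma adjusted p = 0.026). It no longer passed with all arrays set to the same median (limma adjusted p = 0.079) and without luciferase replicate 2 (0.059) or 3 (0.062) or blank replicate 5 (0.069) or 6 (0.080).

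Probe set 1437125_at of *Camk2a* read 467, 666, 608 and 618 on the luciferase arrays, against 436, 377 and 422 on the blank arrays. Luciferase replicate 1 stood near the blank arrays and the other luciferase arrays well above them. It reached 142% of blank (log2 change 0.51 with a standard error of 0.12, limma adjusted p = 0.017). It did not pass without blank replicate 6 (log2 change 0.45, limma adjusted p = 0.064), and without luciferase replicate 1 it was called (log2 change 0.62, limma adjusted p = 0.0043). Probe set 1442707_at read 264, 175, 163 and 169 on the luciferase arrays, against 188, 203 and 194 on the blank arrays, and its 95% interval reached from -0.39 to 0.30 on the log2 scale. Luciferase replicate 1 was above all blank arrays there and the other luciferase arrays below them. The same split by array stood in 1452453_a_at, at 64.3, 31.1, 32.3 and 34.2 on the luciferase arrays, against 37.5, 40.6 and 39.3 on the blank arrays. Probe set 1441734_at read 63.0, 58.5, 63.8 and 61.5 on the luciferase arrays, against 76.3, 77.5 and 65.8 on the blank arrays; the groups did not overlap, and the log2 change of -0.24 missed the threshold (limma adjusted p = 0.055) but passed without blank replicate 7 (-0.32, limma adjusted p = 0.013).

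*Camk2b* and *Camk2g*, which encode the beta and gamma subunits, had 3 tested probe sets, which did not pass and whose 95% intervals all included 0. *Camk2b* 1448676_at read 2542, 2440.5, 2614 and 2238 on the luciferase arrays, against 1889, 1973 and 2653 on the blank arrays (log2 change 0.19, 95% interval -0.08 to 0.46, limma adjusted p = 0.26). Blank replicate 7 was the highest array of all and the other blank arrays were the lowest. Without it the probe set passed (log2 change 0.35, limma adjusted p = 0.017). *Camk2g* had log2 changes of 0.09 (95% interval -0.10 to 0.27) in 1423941_at and 0.03 (95% interval -0.12 to 0.18) in 1423942_a_at, so a difference of 1.5-fold lay outside both intervals.

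**Figure D3:**
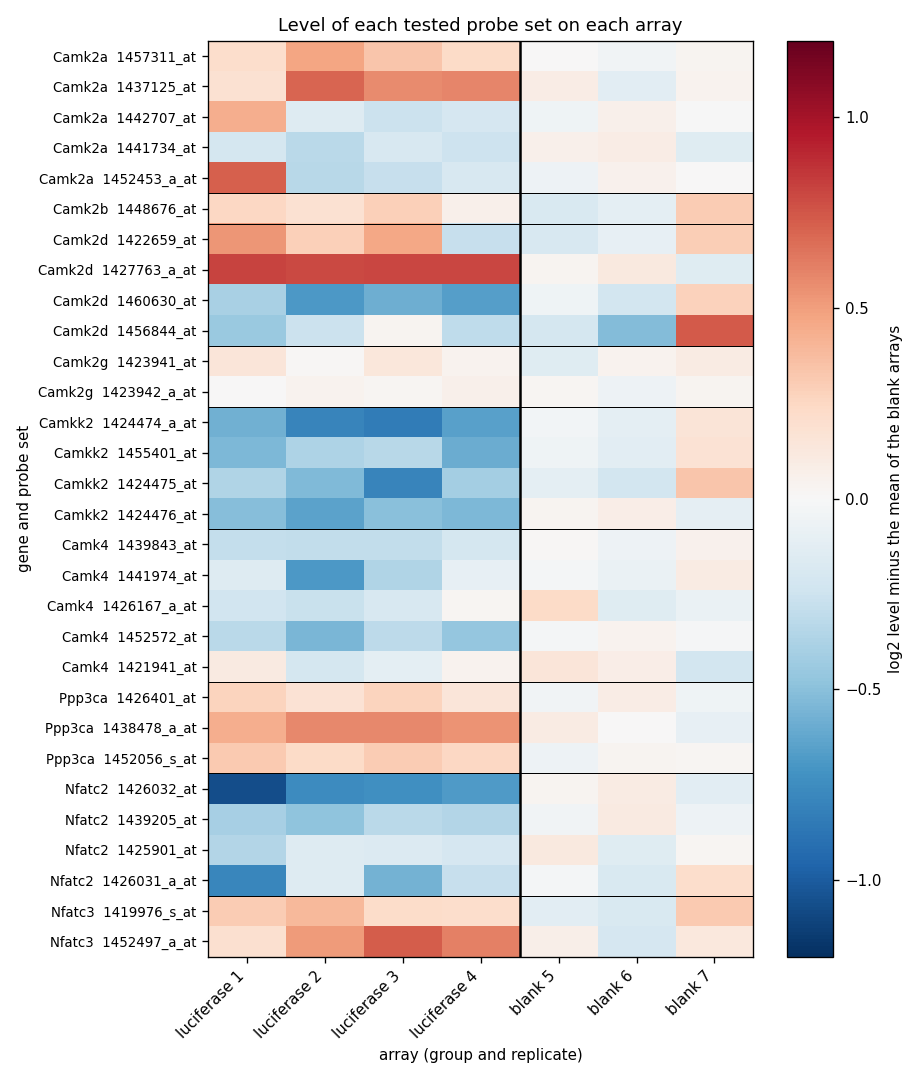
Log2 level of each of the 30 probe sets (rows) on each array (columns, luciferase 1 to 4 and then blank 5 to 7), relative to the mean of the 3 blank arrays; red is higher and blue is lower. Luciferase replicate 1 departs from the other luciferase arrays in *Camk2a* 1442707_at and 1452453_a_at, and blank replicate 7 from the other blank arrays in *Camk2d* 1456844_at.

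*Ppp3ca*, the catalytic alpha subunit of calcineurin, was higher in 2 of its 3 probe sets. Probe set 1438478_a_at read 2990.5, 3295, 3296 and 3207 on the luciferase arrays, against 2352, 2214 and 2056 on the blank arrays. The groups were far apart, at 3197 ± 144 in luciferase neurons (SD, n = 4) and 2207 ± 148 in blank neurons (SD, n = 3), or 145% of blank (log2 change 0.54 with a standard error of 0.077, limma adjusted p = 0.0022). It passed under all 15 alternatives and, in the fit as reported, stayed under the 1.5-fold line. Probe set 1452056_s_at, whose suffix marks probes that may be shared with other transcripts, read 2149, 2025, 2127 and 2051 on the luciferase arrays, against 1656, 1771 and 1758 on the blank arrays (log2 change 0.27, limma adjusted p = 0.020). It did not pass with all arrays set to the same median (limma adjusted p = 0.092) or without luciferase replicate 1 (0.054), luciferase replicate 3 (0.051) or blank replicate 5 (0.079). The brightest, 1426401_at, read 5223, 4892, 5195 and 4797 on the luciferase arrays, against 4216, 4613 and 4172 on the blank arrays. These groups did not overlap either, and the log2 change of 0.21 (95% interval 0.05 to 0.38) missed the threshold (limma adjusted p = 0.061).

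The NFAT factors had 6 tested probe sets, of which 2 were lower and 3 did not pass. The remaining 1, of *Nfatc3*, was higher but had entered the test through 1 luciferase array alone. *Nfatc2* was the lower one. Probe set 1426032_at read 183, 227, 229.7 and 239 on the luciferase arrays, against 392, 409.8 and 349.6 on the blank arrays. Every luciferase array was far below every blank array, and luciferase replicate 1 was the lowest. The mean ± SD was 219.7 ± 24.9 in luciferase neurons (n = 4) and 384 ± 30.9 in blank neurons (n = 3), a fall to 57.1% of blank (log2 change -0.81 with a standard error of 0.11, limma adjusted p = 0.0014) that was called under all 15 alternatives.

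The other *Nfatc2* probe sets were dim. Probe set 1439205_at read 56.5, 53.6, 59.7 and 58.7 on the luciferase arrays, against 72.3, 80.4 and 71.6 on the blank arrays, and passed (log2 change -0.39, limma adjusted p = 0.0082). Probe set 1425901_at read 52.6, 60.1, 59.9 and 58.2 on the luciferase arrays, against 72.7, 60.8 and 68.4 on the blank arrays (log2 change -0.22, limma adjusted p = 0.093), and its groups came close without overlap. Probe set 1426031_a_at read 31.4, 48.5, 36.5 and 44.4 on the luciferase arrays, against 53.0, 47.5 and 62.4 on the blank arrays. These groups overlapped (log2 change -0.44, limma adjusted p = 0.061), and without luciferase replicate 2 it passed (log2 change -0.54, limma adjusted p = 0.038). Probe set 1426031_a_at reached 50 only on 2 blank arrays, so it entered the test through the group where it is high.

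*Nfatc3* was low on all arrays. Probe set 1452497_a_at read 35.5, 44.3, 51.4 and 47.2 on the luciferase arrays, against 32.6, 27.1 and 33.9 on the blank arrays, so only luciferase replicate 3 reached the floor of 50. The luciferase arrays lay above the blank arrays (log2 change 0.51 with a standard error of 0.13, limma adjusted p = 0.022). The probe set did not pass without luciferase replicate 3 (limma adjusted p = 0.058), luciferase replicate 4 (0.052) or blank replicate 6 (0.083), and it was called without luciferase replicate 1 (log2 change 0.61). It was tested only because of luciferase replicate 3. Probe set 1419976_s_at read 95.2, 101, 89.9 and 89.4 on the luciferase arrays, against 70.6, 68.1 and 95.7 on the blank arrays, and its groups overlapped at blank replicate 7 (log2 change 0.28, limma adjusted p = 0.11). Without blank replicate 7 it passed (log2 change 0.44, limma adjusted p = 0.0064).

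Other genes of calmodulin, CaM kinase, calcineurin and NFAT signaling were read from a list of 51, each by its probe set of the highest level. Of the 45 tested, 9 were higher in luciferase neurons, 1 was lower and 35 did not pass, with a median log2 change of 0.071, beside the shares of 16.2% and 8.26% over all tested probe sets. The count of higher genes was 5 with luciferase replicate 1 left out, 4 without luciferase replicate 2 or 3, 3 without blank replicate 5 or 6 and 15 without blank replicate 7, and that of lower genes was 2 without blank replicate 7. The calmodulin genes had no probe set that names 1 gene. By the probe set of the highest level, *Dclk3*, a kinase of the CaM kinase family, and *Dapk2*, a calmodulin-regulated death-associated kinase, were called. Dimmer probe sets were called as higher for *Camk2n1* (log2 change 0.90, limma adjusted p = 0.00038), *Creb1* (0.82, limma adjusted p = 0.0035) and *Cabin1* (0.81, limma adjusted p = 0.0062). No dimmer probe set was called as lower. Without being called, dimmer probe sets passed as lower for *Crem* (log2 change -0.45, limma adjusted p = 0.010), *Gsk3b* (-0.36, limma adjusted p = 0.025), *Stk11* (-0.47, limma adjusted p = 0.040) and *Ppp3cb*. That of *Stk11* reached 50 only on blank arrays, so it entered through the group where it is high. Those of *Camk1d*, *Dclk1* and *Dyrk1a* that passed were higher. The brightest probe set of *Cabin1*, listed with the calcineurin regulators, did not pass (log2 change 0.02, limma adjusted p = 0.91). *Dclk3* read 190.4, 200.5, 183 and 176 on the luciferase arrays, against 81.5, 86.3 and 80.2 on the blank arrays, a rise to 226% of blank with the groups far apart (log2 change 1.18 with a standard error of 0.075, limma adjusted p = 6.6e-05). *Dapk2* averaged 29.9 ± 6.64 in luciferase neurons (SD, n = 4), under 50 on every array, and 48.1 ± 7.69 in blank neurons (SD, n = 3; log2 change -0.70, limma adjusted p = 0.016), and it was tested only because blank replicate 7 reached 50, so it entered through the group where it is high. It was under 1.5-fold without blank replicate 7 (log2 change -0.58).

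Some partners of the members stood among the 9 that were higher. Others on the list, *Rcan1*, *Rcan2* and *Crtc1* among them, did not pass. *Nrgn*, whose protein neurogranin holds calmodulin at rest, averaged 4398 ± 164 in luciferase neurons (SD, n = 4) and 3193 ± 149.6 in blank neurons (SD, n = 3; log2 change 0.46, limma adjusted p = 0.0030). *Rcan3*, of a family of calcineurin regulators, had a log2 change of 0.43 (limma adjusted p = 0.032). *Prkaa1*, a catalytic subunit of the AMPK that *Camkk2* activates, had 0.42 (limma adjusted p = 0.035). It lay near the floor of 50, between 71.1 and 77.1 on the luciferase arrays and between 44.4 and 65.8 on the blank arrays. *Prkaa2*, another AMPK catalytic subunit, was brighter and did not pass (log2 change -0.16, limma adjusted p = 0.21). *Camk2n1*, which encodes an inhibitor of CaM kinase II, averaged 6163 ± 271 in luciferase neurons (SD, n = 4) and 4658 ± 149 in blank neurons (SD, n = 3). Its log2 change was 0.40 (limma adjusted p = 0.0050) in this brightest probe set and 0.90 in the dimmer one, which was called. *Creb1*, a substrate of *Camk4*, had a log2 change of 0.34 (limma adjusted p = 0.018) in its brightest probe set. A dimmer probe set of *Creb1* did not pass (log2 change 0.21, limma adjusted p = 0.19). Its called probe set (log2 change 0.82) reached 50 only on luciferase arrays, so it entered through the group where it is high. *Camk2n1* and *Creb1* were chosen after their values were seen. *Rcan3* did not pass without luciferase replicate 1 (limma adjusted p = 0.056), 2 (0.075) or 3 (0.078) or blank replicate 5 (0.11) or 6 (0.11) and was called without blank replicate 7 (log2 change 0.59). *Prkaa1* was called with array weights (log2 change 0.64) and did not pass with all arrays set to the same median (limma adjusted p = 0.073) or without luciferase replicate 1 (0.062), 2 (0.078), 3 (0.082) or 4 (0.056) or blank replicate 5 (0.090) or 6 (0.068), and *Creb1* without blank replicate 5 (0.058) or 6 (0.066).

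The calcineurin subunits outside the members did not pass by their brightest probe sets. *Ppp3cb*, the catalytic beta subunit, read 5453, 5466, 5794 and 5211 on the luciferase arrays, against 6056, 6375 and 6982 on the blank arrays. These groups did not overlap and lay in the opposite order to those of *Ppp3ca*, with a log2 change of -0.24 that missed the threshold (95% interval -0.41 to -0.06, limma adjusted p = 0.051). Another of its probe sets passed (log2 change -0.23, limma adjusted p = 0.047). *Ppp3cc*, the catalytic gamma subunit, had a log2 change of 0.13 (95% interval -0.18 to 0.44), and *Ppp3r1*, the regulatory subunit, -0.07 (95% interval -0.23 to 0.09).

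**Figure D4:**
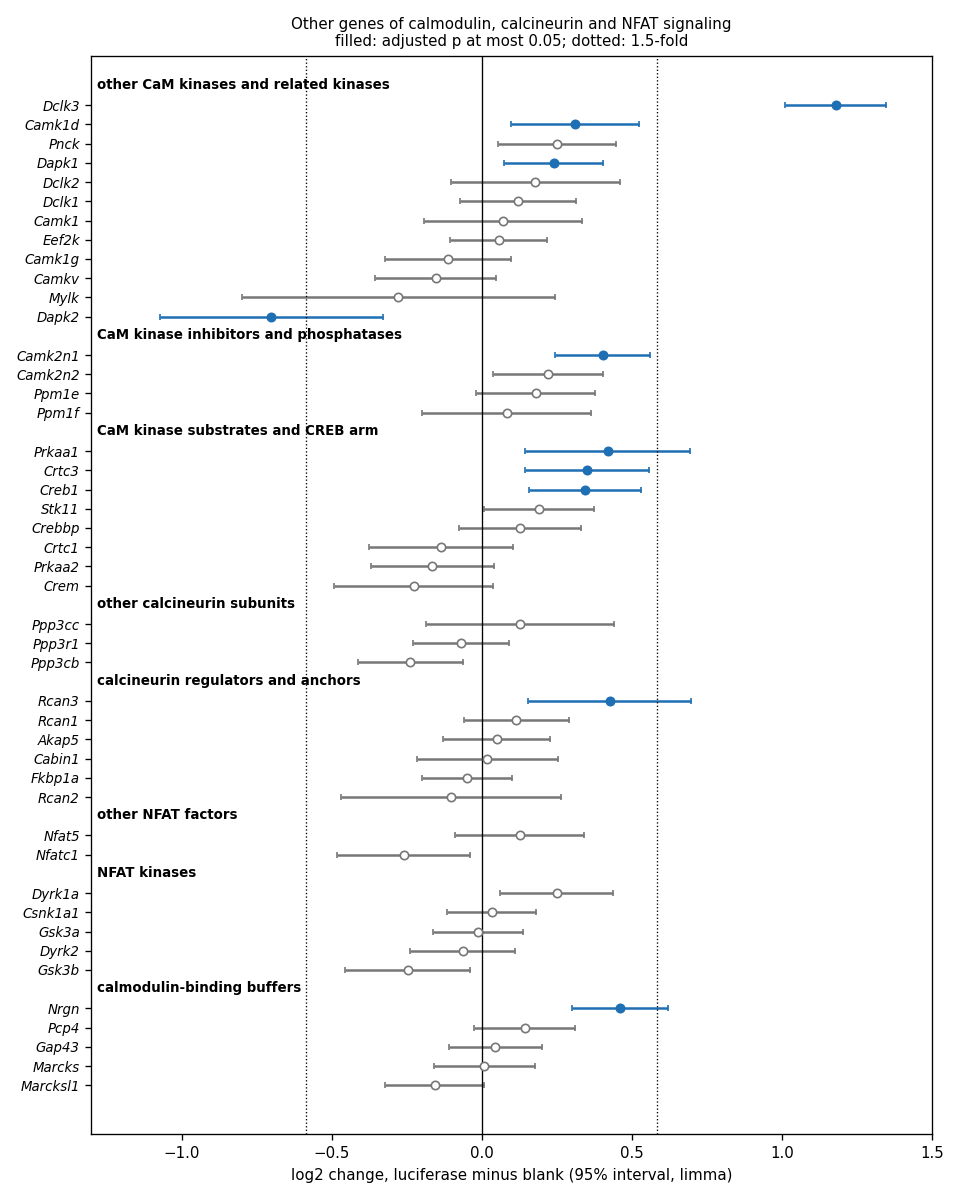
Log2 change of 45 other genes of the pathway, luciferase minus blank, with the 95% interval from limma (x axis), by gene within its role (y axis); filled points passed the adjusted p and dotted lines mark 1.5-fold. The points of *Dclk3* at 1.18 and *Dapk2* at -0.70 lie outside the dotted lines, and most other intervals include 0.

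Markers of other cell types moved between the same groups. Each marker gene was read by its probe set of the highest level. Of 10 astrocyte genes 6 were higher in luciferase neurons and 0 lower, 9 did not overlap, and their summed level lay between 24663 and 26976 on the luciferase arrays and between 18296 and 20366 on the blank arrays, with *Gfap* at a log2 change of 1.19. Of 6 tested vascular and meningeal genes 3 were lower, *Dcn* by the most (421 ± 83.7 in luciferase neurons, n = 4, and 835 ± 93.5 in blank neurons, n = 3). *Col1a2*, another of the 3, was tested only because it reached 50 on the blank arrays. A further 1, *Pdgfrb*, was higher (log2 change 0.70, limma adjusted p = 0.0095). The list had sums of 627 to 811 in luciferase neurons and 1069 to 1191 in blank neurons. *Dcn* alone gave 347 to 540 and 760 to 940 of these. Of 7 genes of progenitors and dividing cells 3 were higher (*Vim*, *Hes5* and *Pax6*), and *Mki67*, *Top2a*, *Cdk1* and *Nes* did not pass. Their sums were 3864 to 4648 in luciferase neurons and 3136 to 3506 in blank neurons. *Vim* alone gave 2410 to 2838 and 1867 to 2167 of these. Of 10 neuronal genes 0 were higher and 1 was lower (*Nefl*, log2 change -0.80), with sums of 49012 to 50461 in luciferase neurons and 48306 to 51347 in blank neurons. Dimmer probe sets passed as higher for *Elavl4* (2, at log2 changes of 0.32 and 0.54), *Map2* (1) and *Rbfox3* (1). A dimmer probe set of *Nefl* passed as lower (-0.81). Of 7 excitatory neuron genes 2 were higher (*Tbr1* with a log2 change of 0.61 and *Slc17a7* with 0.39) and 1 was lower (*Neurod6*, -0.68), with sums of 4770.2 to 5064 in luciferase neurons and 5269.6 to 6156 in blank neurons. Of 8 GABA neuron genes 1 was lower and 0 higher, and of 6 oligodendrocyte lineage genes 1 was higher and 0 lower. For *Sox10*, which did not pass by its brightest probe set, 1 dimmer probe set passed, and its dimmer ones had log2 changes between -0.31 and -0.14. For *Mbp*, the higher gene, 1 dimmer probe set passed, and its dimmer ones lay between -0.26 and 0.60. Of 9 microglial genes 7 were under 50 on all arrays, *Aif1*, *Cx3cr1* and *Itgam* among them, and the other 2 did not pass. The members *Camk2d*, *Camkk2*, *Ppp3ca* and *Nfatc2* differed between the same arrays, and the part of these cell types in their differences was not tested.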

How the data were processed

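RNA of 4 luciferase and 3 blank samples was hybridised to Affymetrix Mouse 430_2 arrays. The authors normalized the scans with RMA and deposited linear intensity, which spanned 4.69 to 23763 here. The version of RMA and the arrays normalized together are not given in the sources used here. The authors dropped 1 untransduced sample after quality control of its RNA. The labels name Trizol where the methods name a column kit, and groups were taken from the treatment labels. Columns of other samples numbered 0.

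As deposited, the blank columns stood 1 row low. They were moved up by 1, after which the log2 group means had r = 0.995, against 0.421 as deposited; in the 200 rows either side of each member the lowest r was 0.988 after the move. Of 45101 probe sets, 2441 with _x and 64 controls were left out, as were those under 50 on all arrays, which left 22748. Log2 intensities were fitted with limma 3.58.1 in R 4.3.3 (lmFit, eBayes, luciferase minus blank, no covariates). P-values were adjusted by Benjamini and Hochberg's method over the 22748 probe sets; the number of arrays limits the precision. Gene names came from the platform annotation, matched to RefSeq (GRCm38.p6; 34754 matched, 0 updated): 1 gene is named by 20536 of the tested probe sets, several by 451 and none by 1761. The calculations were tested on simulated data. Promoters were listed there for 6 of the 10 members.

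Named were all members, called genes of the signaling list, the 3 largest rises and falls that passed without being called, the calmodulin genes and calcineurin subunits, the markers with the largest difference in a list, and the 3 genes most like each called member; further names were picked with their values in view. The members and lists were chosen with earlier results of these data known. The alternatives were other filters on level, probe sets with _x kept, quantile normalization, centring on the median, eBayes with trend and robust, array weights, the mean over the probe sets of a gene, and each array left out in turn.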

Additional observations from a re-analysis of the deposited data

Results flagged for a closer look

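In the 4 luciferase arrays, 3 of 75 probe sets examined (30 of the members and 45 of the signaling list) had 1 array far from the other 3. Such a gap arises by chance in about 1 of 20 groups, and groups of 3 blank arrays were not examined. *Camk2a* 1442707_at read 263.9 on luciferase replicate 1, and between 163 and 175 on the other luciferase arrays. *Camk2a* 1452453_a_at read 64.3 on the same array, and between 31.1 and 34.2 on the others. *Camk4* 1439843_at read 1867 on luciferase replicate 4, and between 1766 and 1773 on the others. The part of array quality in these gaps was not tested.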

How the results depend on the processing

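Results were recomputed under 15 alternatives, 7 of which leave out 1 array; probe sets under a stricter filter on level had 13 or 14, and signaling genes had the mean over their probe sets besides. Over the 30 member probe sets, 382 recomputed log2 changes kept their sign and their side of the threshold, 22 kept their sign but no longer passed, 20 passed where they had not, and 14 turned. The called probe sets of *Camk2d*, *Camkk2* and *Nfatc2* were called in all 15. With array weights, which gave blank replicate 7 a weight of 0.27 and blank replicate 5 a weight of 3.41, 9550 of all tested probe sets passed in place of 5568, 10 member probe sets passed as higher and 14 as lower, and 17 signaling genes were higher and 4 lower. With each array centred on its median, 5 member probe sets were called lower in place of 2, and 5 signaling genes were higher and 5 lower in place of 9 and 1. Quantile normalization gave 4 member probe sets called lower. Signaling genes that were lower numbered 4 with trend and robust eBayes and 3 with the mean over the probe sets of a gene. With 1 array left out, the probe sets that passed numbered between 3245 and 7047 of all tested, the member probe sets that passed between 3 and 8 higher and between 7 and 9 lower, those called between 1 and 3 higher and between 2 and 4 lower, and the signaling genes between 3 and 15 higher and between 1 and 2 lower. The turned log2 changes were all in probe sets that did not pass. With 1 array left out, that of *Camk2a* 1442707_at lay between -0.20 and 0.027 (turned without luciferase replicate 3, and at 0.0097 without luciferase replicate 4), and that of *Camk2d* 1456844_at between -0.50 and 0.125 (turned without blank replicate 7). For *Camk2a* 1452453_a_at they were 0.047 with quantile normalization, 0.0035 with array weights, 0.084, 0.066 and 0.038 without luciferase replicates 2, 3 and 4, and 0.0070 without blank replicate 6, against -0.27 without luciferase replicate 1. For *Camk2g* they were -0.010 (1423941_at) and -0.063 (1423942_a_at) with centring and -0.027 (1423942_a_at) with quantile normalization. For *Camk4* 1421941_at they were 0.011 without luciferase replicate 2 and 0.027 without blank replicate 5, with -0.16 without blank replicate 7 as the lowest of those that leave out 1 array. The cause of these moves was not tested. No paired analysis was possible because the luciferase samples are numbered 1 to 4 and the blank samples 5 to 7. Dim probe sets near 50, such as those of *Nfatc3*, limit what can be read from them.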

Other observations

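The genes whose called probe set was most like a called member were found by the mean absolute difference, over the 7 arrays, of log2 values relative to the mean of the blank arrays, among 857 called probe sets of other single genes. Nearest to *Camk2d* 1427763_a_at were *Cpd*, which encodes carboxypeptidase D (mean difference 0.034 on the log2 scale, log2 change 0.82), *Abca8a*, an ABC transporter gene (0.047, log2 change 0.79), and *Tmc7*, which encodes a transmembrane channel-like protein (0.049, log2 change 0.82). Nearest to *Camkk2* 1424474_a_at were the zinc finger gene *Zfp74* (0.059, log2 change -0.74), *Trak1*, which encodes an adaptor for mitochondrial transport (0.061, log2 change -0.71), and *Mzt1* (0.069, log2 change -0.65). Nearest to *Nfatc2* 1426032_at were *Mir670hg* (0.073, log2 change -0.84), *Gng4*, which encodes a G protein gamma subunit (0.074, log2 change -0.86), and *Srgap1*, which encodes a GTPase-activating protein of Slit-Robo signaling (0.081, log2 change -0.71).

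The 6 member probe sets under the floor were dim in both groups. *Camk2a* 1443876_at lay between 33.8 and 48.2 on the luciferase arrays and between 38.7 and 42.7 on the blank arrays, so its groups overlapped. *Nfatc2* 1425990_a_at lay between 11.9 and 14.1 on the luciferase arrays and between 11.9 and 12.8 on the blank arrays, and its groups overlapped too.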
